A study of Mus musculus with 103 samples.

Results

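The BIIB amplification and labelling protocol was run on a dilution series of 1 RNA, from 10 pg to 5 ng of total RNA. All 24 arrays that the labels give as Mouse Universal Total RNA labelled by BIIB were taken, out of 103 arrays in the series. The arrays fall into 6 inputs of 4 arrays each: 10 pg, 50 pg, 100 pg, 500 pg, 1 ng and 5 ng. The RNA was Stratagene Mouse Universal Total RNA, a commercial pool, so all groups share 1 source and differ by the amount that entered the reaction. Biotin-labelled cDNA was hybridised to Affymetrix mouse arrays of 22690 probe sets, and the value of a probe set is its MAS5 signal, a linear intensity scaled per array. For comparison at matched input, the same RNA labelled with the kits AFFX2rd (an Affymetrix kit, cRNA), NGN (Nugen Ovation, cDNA) and ARCHS (Arcturus RiboAmp HS, cRNA) was used at 50 pg, 500 pg and 5 ng (2 arrays per kit and input). No label says that the 4 arrays of an input came from separate dilutions or reactions, so p-values here cover array-to-array spread alone, and that spread may be technical.

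A picogram of total RNA holds few copies of any one messenger RNA that is not abundant. An amplification protocol copies each transcript through reverse transcription and further rounds, so a molecule that is missing from the tube, or is not copied in the first round, cannot be recovered later. Transcripts of ribosomal proteins, actin and glycolytic enzymes are among the most abundant in cells, whereas transcripts of transcription factors and signalling proteins are mostly rare.

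Genes of several cell types had signal in the pool at 5 ng, each gene taken by its brightest probe set. A mean signal of 500 or more was reached by 14 of 19 macrophage genes, 8 of 14 lymphocyte genes, 18 of 19 extracellular matrix and fibroblast genes and 7 of 17 skeletal muscle genes. Of all 22626 probe sets other than controls, 11868 reached it. The lymphocyte count lies near that share and the muscle count below it, so neither says which cell types the pool held. Only 1 of 22 liver and plasma protein genes and 2 of 25 spermatid and testis genes reached it. The 4 arrays of an input agreed less as the input fell: the mean Pearson r between arrays, across probe sets, was 0.669 at 10 pg and 0.959 at 5 ng (6 pairs each, which share arrays). Replicates 1 and 2 at 100 pg stood closer to each other (r = 0.978) than any pair at 5 ng (up to 0.973), and whether they are 1 labelled sample cannot be told from the labels. With those 2 averaged, 3 against 4 arrays cannot give a two-sided exact p below 0.0571, so the tests of 100 pg below could then not pass 0.05. The median standard deviation between the 4 arrays of a tested probe set was 1.34 (log2) at 10 pg, 0.877 at 50 pg, 0.534 at 100 pg, 0.355 at 500 pg, 0.326 at 1 ng and 0.267 at 5 ng.

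The scale of the 10 pg arrays differed from that of the others. Hybridization controls are bacterial transcripts added to every hybridization in fixed amounts, after labelling. Their median signal over 18 probe sets averaged 223014 ± 52446 at 10 pg (SD, n = 4), against 61623 ± 27131 at 50 pg, 57471 ± 14891 at 100 pg, 53844 ± 18680 at 500 pg, 51125 ± 23964 at 1 ng and 62090 ± 21815 at 5 ng. The lowest 10 pg array, at 178884, lay above the highest 50 pg array, at 98921 (exact permutation p = 0.0286, two-sided, the smallest that 4 against 4 arrays allow, and 0.102 after adjustment over 25 tests). The median signal of all probe sets lay between 257 and 446 at 10 pg and between 541 and 635 at 5 ng. Every array had been scaled to a trimmed mean of 2501, so a signal is relative to the rest of its array, and the part of this scaling in the results was not tested. Results below are given as scaled by the authors, and beside them, where it changes a direction or a call, as rescaled on the hybridization controls.

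**Figure D1:**
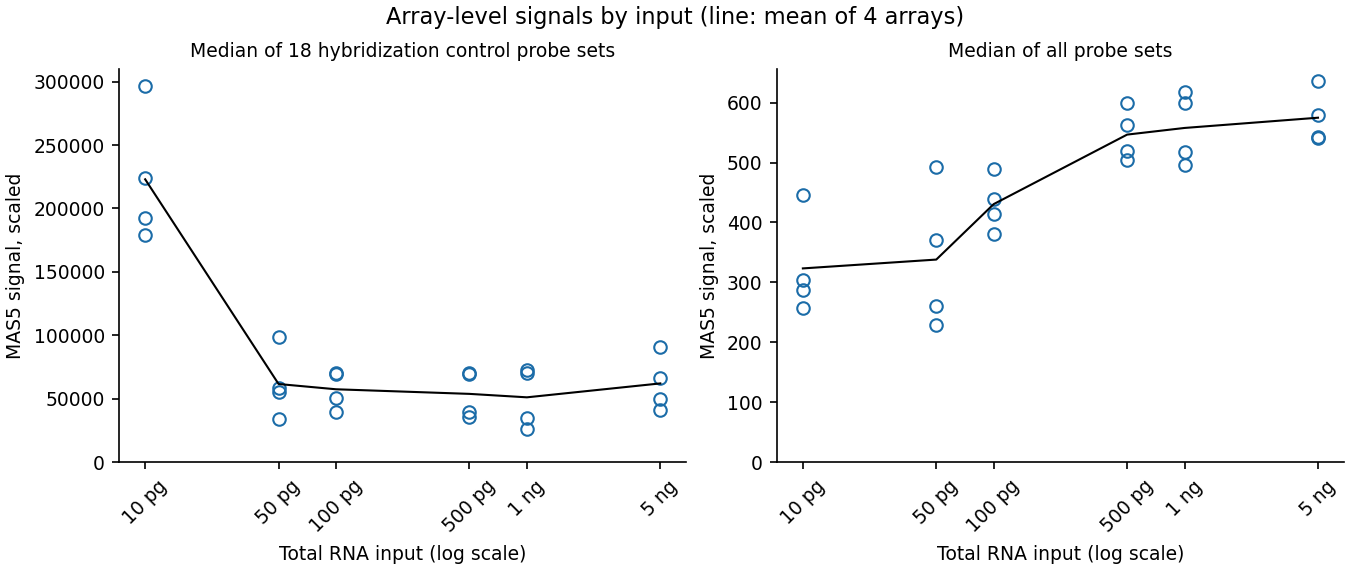
Median MAS5 signal of the 18 hybridization control probe sets (left) and of all probe sets (right) in each of the 24 arrays against total RNA input on a log axis, with circles for arrays and the line for the mean of 4 arrays. The controls stood at 178884 to 296289 at 10 pg and at 98921 or less at every other input.

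Bright probe sets were kept down to lower inputs than dim ones. A probe set was counted as out in an array when its signal was under 25% of its mean signal at 5 ng, and probe sets were grouped by that mean, from 500 upwards. Of the 11868 probe sets over 500, 36.2% ± 0.93 were out at 10 pg (SD, n = 4 arrays), 16.8% ± 3.15 at 50 pg, 7.21% ± 2.51 at 100 pg, 1.35% ± 0.42 at 500 pg and 0.792% ± 0.34 at 1 ng. With 100 pg replicates 1 and 2 averaged as 1 array, the share at 100 pg was 7.82%. In 5 ng arrays, each set against the mean of the other 3, the share was 0.398% ± 0.23. At 10 pg this share depended on the scale: it was 67.9% with arrays rescaled on the hybridization controls and 27.1% after quantile normalization.

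At 50 pg the loss fell step by step with the 5 ng level, but at 10 pg it lay between 38.8% and 41.5% in the 3 levels below 4000. Probe sets at 500 to 1000 were out in 38.8% of cases at 10 pg, 26.5% at 50 pg and 13.8% at 100 pg. Those at 2000 to 4000 were out in 41.5% at 10 pg, 16.6% at 50 pg and 6.07% at 100 pg. The brightest, at 16000 and over, were out in 13.8% at 10 pg, 2.05% at 50 pg and 0.705% at 100 pg. The 4 arrays of 10 pg lay above the 4 of 50 pg in all 6 levels, and so did 50 pg above 100 pg and 100 pg above 500 pg (exact permutation p = 0.0286, two-sided, and 0.0408 adjusted over 30 tests, for each of these 18 comparisons). From 500 pg upwards the arrays overlapped in most levels: 500 pg stood above 1 ng only at 1000 to 2000 (1.35% against 0.565%), and 1 ng above 5 ng only at 1000 to 2000 (0.565% against 0.193%) and 4000 to 8000 (0.0715% against 0.0140%). The last rests on 1 or 2 probe sets out per array at 1 ng and 0 or 1 at 5 ng. Its arrays were apart only because the levels differed in size (1 of 1749 against 1 of 1781 probe sets), so it says nothing on drop-out. The other comparisons above 100 pg did not pass. These tests do not pair arrays, and from 100 pg upwards replicates 1 and 2 stood below 3 and 4. The share over all levels was 5.34%, 4.90%, 10.1% and 8.5% in replicates 1 to 4 at 100 pg, and 1.05%, 0.977%, 1.51% and 1.88% at 500 pg. It was 0.607%, 0.430%, 0.935% and 1.20% at 1 ng, and 0.226%, 0.251%, 0.725% and 0.389% at 5 ng. At 50 pg the share was 16.5%, 21.3%, 14.3% and 15.0%, so there replicates 3 and 4 were lower. Within each replicate number it was lower at 1 ng than at 500 pg and lower at 5 ng than at 1 ng, and 4 pairs are too few for a two-sided exact paired test to pass 0.05. The hybridization controls of replicates 1 and 2 were also below those of 3 and 4, at 34730 and 26460 against 70486 and 72823 in the 1 ng arrays, and their part in the shares was not tested.

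**Figure D2:**
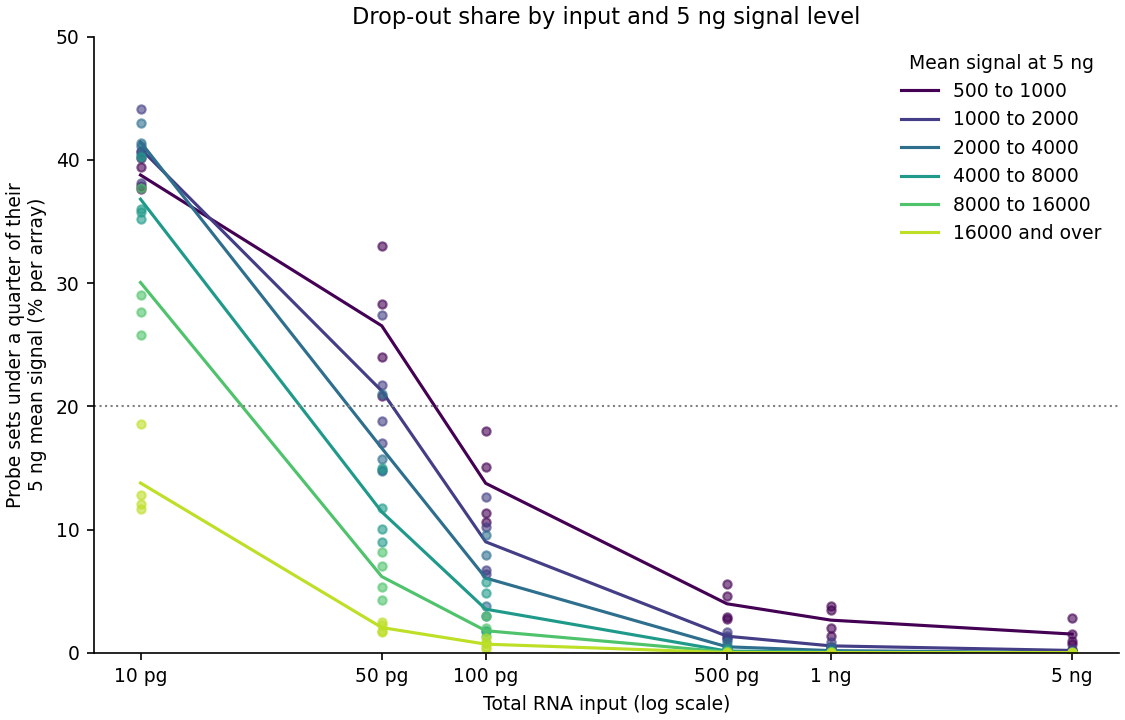
Percent of probe sets with a signal under 25% of their 5 ng mean, against total RNA input on a log axis, for 6 levels of 5 ng signal, with points for arrays and lines for means of 4 arrays. The dotted line at 20% was crossed at 71.3 pg by the dimmest level and at 19.7 pg by the level of 8000 to 16000, and was not reached by probe sets at 16000 and over on this scale.

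The input at which 20% of the probe sets of a level were out moved with the level. By interpolation on log10 input, a share of 20% was reached at 71.3 pg for probe sets at 500 to 1000, at 53.7 pg for 1000 to 2000, at 40.1 pg for 2000 to 4000, at 29.1 pg for 4000 to 8000 and at 19.7 pg for 8000 to 16000. Probe sets at 16000 and over stayed under 20% down to 10 pg (13.8%) on the authors' scale. Rescaled on the hybridization controls, 44.0% of them were out at 10 pg and 20% was reached at 26.0 pg, and counting signals under 1/2 of the 5 ng mean it was reached at 13.3 pg. Over all levels the value was 38.3 pg, and it was 47.6 pg after rescaling on the hybridization controls and 20.7 pg after quantile normalization.

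Which probe sets were out differed from array to array. At 10 pg, 26.7% of the 11868 probe sets were out in 0 of 4 arrays, 27.7% in 1, 24.8% in 2, 15.7% in 3 and 5.12% in all 4, so 68.2% were out in some arrays and not in others. At 50 pg 41.3% and at 100 pg 20.2% were mixed in this way. Taking as the drop-out input the highest input at which at least 3 of 4 arrays were out, there and at every lower input, 2157 probe sets dropped out from 10 pg, 278 from 50 pg, 36 from 100 pg, 2 from 500 pg and 0 from 1 ng. The other 9395 (79.2%) had no drop-out input.

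**Figure D3:**
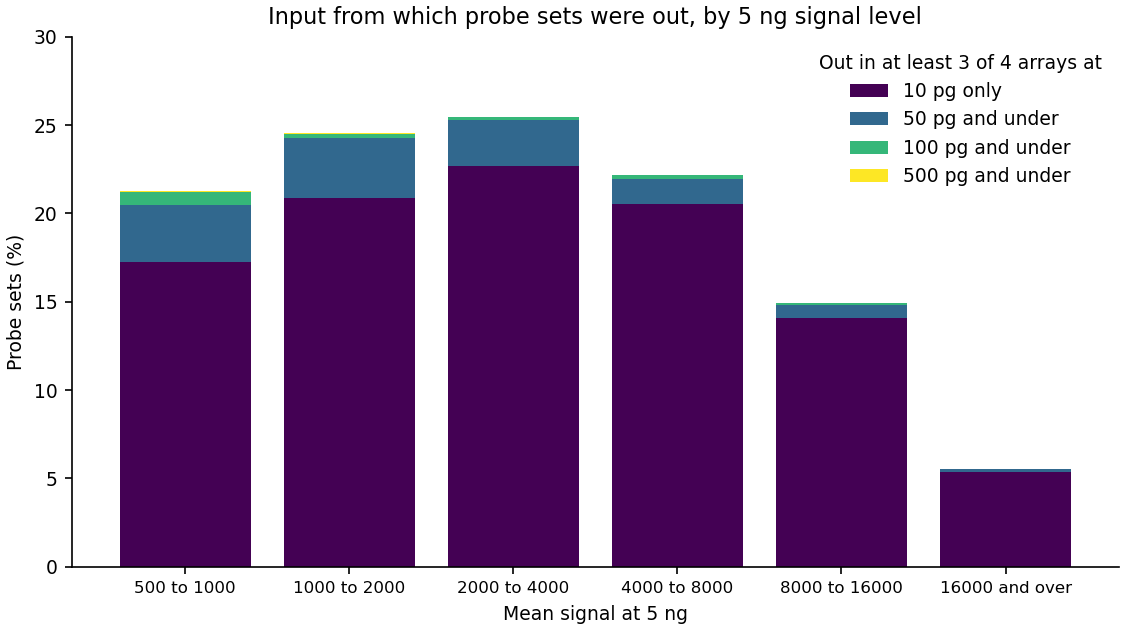
Percent of probe sets of each 5 ng signal level that were out in at least 3 of 4 arrays at 10 pg only, at 50 pg and under, at 100 pg and under or at 500 pg and under, as stacked bars. Of probe sets at 16000 and over, 5.38% dropped out from 10 pg and 0.171% from 50 pg, against 22.7% and 2.64% at 2000 to 4000.

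Probe sets of 1 gene were out in the same array more often than in different arrays. Genes with 2 probe sets at a 5 ng signal of 2000 to 8000 numbered 541. At 10 pg, where the brighter probe set was out, the second was out in the same array in 57.8% of cases (55.1 to 62.3% over the 4 arrays) and in another array of 10 pg in 43.6% (40.4 to 46.3%), against 38.2% over all cases. For the 307 genes with both at 8000 and over, the values were 53.7%, 32.5% and 17.8%. At 50 pg the pair at 2000 to 8000 gave 29.3%, 17.3% and 14.3%.

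A lysosomal and 2 glycolytic transcripts varied least over the whole range on the authors' scale. Ctsl, a lysosomal protease, had signals of 90745, 102132, 122922 and 100733 in the 10 pg arrays, and 119929, 117144, 119060 and 95378 in the 5 ng arrays. Ldha, the muscle-type subunit of lactate dehydrogenase, stood at 110380 to 190353 at 10 pg and 155516 to 206235 at 5 ng. Tpi1, triosephosphate isomerase of glycolysis, stood at 31038 to 59965 at 10 pg and 37131 to 52830 at 5 ng. The arrays of both inputs overlapped for all 3 genes, which were chosen for the smallest spread over the 24 arrays among probe sets over 8000. On the hybridization-control scale all 3 were called higher with more input, with slopes of 0.64 for Ctsl, 0.64 for Ldha and 0.61 for Tpi1 (limma's adjusted p = 0.00482, 0.00503 and 0.00841).

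Other bright transcripts were out in 3 of 4 arrays at 10 pg and kept in 1. Pfkp, the platelet-type phosphofructokinase of glycolysis, had 2145, 2835, 37435 and 3803 at 10 pg, 33213 to 63189 at 50 pg and 39650 to 63290 at 5 ng. Dcaf13, a nucleolar protein of ribosomal RNA processing, had 5412, 55429, 1604 and 1054 at 10 pg, 13813 to 24211 at 50 pg and 39479 to 46617 at 5 ng. In each gene the single high array of 10 pg was at or near the 5 ng level. Mrpl2, a protein of the large subunit of the mitochondrial ribosome, was low in all 4 arrays of 10 pg, at 2417, 3074, 1025 and 2146, with 6235 to 30682 at 50 pg and 35101 to 42763 at 5 ng.

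The brightest probe sets out from 50 pg were those of Plagl1, Bnip2 and AW209491. Plagl1, an imprinted zinc finger transcription factor, had 1746, 5260, 81555 and 1260 at 10 pg, and 14823, 506, 278 and 60325 at 50 pg. At 100 pg it had 22830, 32468, 6069 and 6101, and at 5 ng 47750 to 87424. Both 10 pg and 50 pg thus held 1 array at the 5 ng level beside 3 that were out. The probe set of Plagl1, like those of Prm1, Rab24, Slu7 and Gramd3 below, is of a type that can also bind related sequences. Bnip2, which binds members of the BCL2 family, had 949, 662, 24.3 and 61.3 at 10 pg, 627, 112, 13744 and 335 at 50 pg and 25281, 27543, 25967 and 4892 at 100 pg. From 500 pg to 5 ng its arrays lay between 12211 and 20065.

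The brightest probe sets out from 100 pg were those of Rufy2, Hif1a and Ttf1. Hif1a, the oxygen-regulated subunit of hypoxia-inducible factor, had 49.0, 279, 116 and 11.2 at 10 pg, 204, 36.9, 6077 and 599 at 50 pg and 182, 221, 5334 and 529 at 100 pg. At 5 ng it had 1723, 2663, 5701 and 8967, so the 5 ng arrays themselves spread widely. These values are of 1 probe set per gene, and other probe sets of Hif1a and Ttf1 changed less with input, as given below. Ttf1, the termination factor of RNA polymerase I, had 293, 465, 713 and 119 at 100 pg and 2895 to 5922 at 5 ng, and 1 array of 50 pg stood at 22336. Rufy2, a protein of endosomal membranes, had 551, 457, 2584 and 438 at 100 pg against 3979 to 6022 at 5 ng, with 1 high array at 10 pg (7898) and 1 at 50 pg (8244). Of the 2 probe sets out from 500 pg, 1 passed the filter on mean signal, a probe set of Nup54, a nuclear pore protein, named after its values were seen. Its 5 ng mean was 1164, and the brighter probe set of Nup54, with a 5 ng mean of 6583, had no drop-out input.

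**Figure D4:**
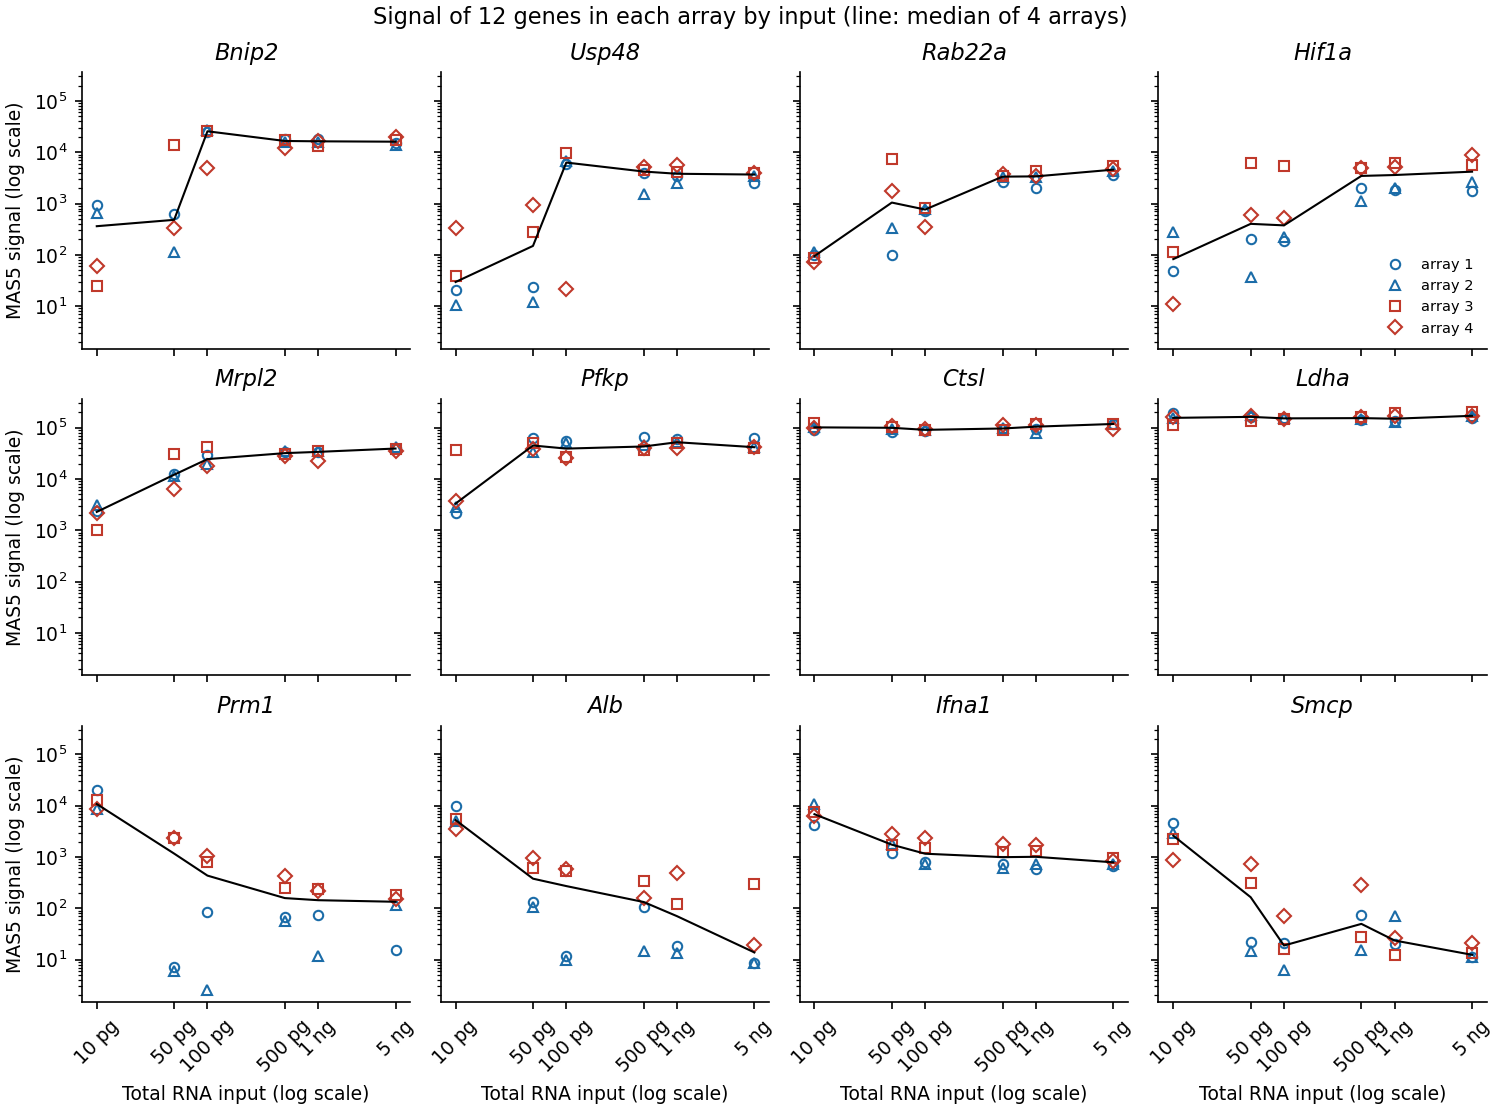
MAS5 signal (log axis) of 12 genes in each array against total RNA input (log axis), with symbols for the 4 arrays of an input and a line for their median. Bnip2, Usp48, Rab22a, Hif1a, Mrpl2 and Pfkp were low in most 10 pg arrays, Ctsl and Ldha stayed level on the authors' scale (but were higher with more input on the hybridization-control scale), and Prm1, Alb, Ifna1 and Smcp were highest at 10 pg.

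A straight line of log2 signal on log10 input was fitted to all 24 arrays to ask which transcripts changed with input. A slope is the log2 change per 10-fold more input, and a call needed limma's adjusted p below 0.05 and a fitted change of at least 2-fold between 10 pg and 5 ng. Of 11762 probe sets tested, 2939 (25.0%) were higher with more input and 176 (1.50%) were lower. The median slope of all was 0.30. The 10 pg arrays were far noisier than the rest, and with array weights estimated per input 1127 (9.58%) were higher and 155 (1.32%) lower, with 804 and 64 of the first calls among them. On simulated data with such unequal spread the fit without weights made several times more false calls than its threshold allows and the weighted fit came close to it, so each call is given with both. The simulation had 200 changed and 11562 unchanged probe sets and normally distributed noise, so its share of false calls need not hold for these data. Without the 10 pg arrays 536 of 11731 (4.57%) were higher and 90 (0.767%) lower. After quantile normalization 1341 of 11922 (11.2%) were higher and 455 (3.82%) lower, and on the hybridization-control scale 9576 of 12234 (78.3%) were higher and 5 (0.0409%) lower, with a median slope of 0.74. Adjusted p-values below are from limma without weights, followed by the value with array weights.

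The slope was steepest at middle levels. The median was 0.26 at a 5 ng signal of 500 to 1000, 0.40 at 1000 to 2000, 0.42 at 2000 to 4000, 0.35 at 4000 to 8000, 0.26 at 8000 to 16000 and 0.01 at 16000 and over. At 2000 to 4000, 33.2% of 2348 probe sets were higher with more input and 0.554% lower. At 16000 and over, 10.7% of 1170 were higher and 7.26% lower. With levels taken from the 4 AFFX1rd arrays (Affymetrix One Cycle labelling of 1 ug), which share no array with the trend, the medians were 0.40 at 1000 to 2000 and 2000 to 4000 and -0.07 at 16000 and over, where 33 were higher and 88 lower.

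The 8 steepest positive slopes were those of Bnip2, Lrrfip1, AW209491, Usp48, Nme7, Hif1a, Rab22a and Copz2. Bnip2 had a slope of 2.07 ± 0.38 (SE; adjusted p = 0.000869, and 0.0692 with weights), a fitted 48.3-fold over the range. Rab22a, a small GTPase of endosomes, had 101, 116, 88.1 and 72.5 at 10 pg and 3629, 4348, 5304 and 4801 at 5 ng. Its slope was 1.63 ± 0.23 (adjusted p = 0.000135, and 0.000759 with weights). Its arrays of 100 pg (343 to 805) were all out and only 2 of 4 were out at 50 pg (97.3, 338, 7331 and 1750), so by the rule its drop-out input was 10 pg. Each gene is given by its brightest probe set, and other tested probe sets had smaller slopes. These were 0.56 and 1.80 for Bnip2, 0.48 and 0.79 for Lrrfip1 and 0.85 and 0.70 for Usp48. They were 0.49 and 0.13 for Hif1a and 0.86 and 0.16 for Rab22a, where the smaller was not called. Ttf1 had 1.48 at the probe set above and 0.46, not called, at its other.

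Usp48, a ubiquitin-specific protease, had 20.3, 10.7, 38.8 and 336 at 10 pg, 5866, 6722, 9482 and 21.1 at 100 pg and 2512 to 4023 at 5 ng, with a slope of 1.72 ± 0.34 (adjusted p = 0.00136, and 0.118 with weights). Nme7, a protein of the gamma-tubulin ring complex, was at 17.7 to 281 at 10 pg, 1275 to 19885 at 50 pg and 5944 to 9737 at 5 ng (slope 1.66 ± 0.30, adjusted p = 0.000858, and 0.0349 with weights). Copz2, a subunit of the COPI vesicle coat, was at 38.5 to 1452 at 10 pg and 11558 to 16830 at 5 ng (slope 1.60 ± 0.31, adjusted p = 0.00107, and 0.0116 with weights). Lrrfip1, AW209491 and Hif1a had slopes of 1.81, 1.79 and 1.66, and all 3 kept an adjusted p under 0.05 with weights. The 4 arrays of 10 pg and the 4 of 5 ng did not overlap for any of these 8 genes, which was required for naming them, and 24.5% of all probe sets tested showed such a gap.

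Zinc finger transcription factors and ubiquitin-specific proteases were out in a larger share of cases at 10 pg than all probe sets of their level in each of the 4 arrays, which is a description with no test. The same held for reference genes and glycolysis enzymes, given further below. For each list the share out at 10 pg is set beside the mean share of all probe sets in the same half-log2 step of 5 ng signal, and then of one-cycle signal. Zinc finger transcription factors were out in 49.3% of cases (46.0 to 51.3% over the 4 arrays, 113 genes), against 39.3% for their 5 ng level (38.5 to 40.9%) and 43.0% for their one-cycle level. At 50 pg they were out in 25.0%, against 21.2% and 26.5%, so the excess was absent there by one-cycle level. Ubiquitin-specific proteases were out in 48.1% (27 genes, 44.4 to 51.9%), against 38.6% and 39.0%. Mitotic genes were out in 46.4% (21 genes, 23.8 to 61.9%), against 29.9% and 27.2%, and their lowest array lay below both. RNA helicases of the DEAD and DEAH box families were out in 37.1% (35 genes, 31.4 to 51.4%), against 32.5% and 36.0%, values inside the range of their arrays. At 50 pg the helicases were out in 24.3% (17.1 to 42.9%), against 11.7% and 15.0%, both below each of their arrays. At 100 pg they were out in 12.1%, against 4.46% for their 5 ng level.

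By the slope, 41 of 111 (36.9%) tested zinc finger genes were higher with more input and 1 (0.901%) was lower. Of all probe sets 25.0% were higher and 1.50% lower, and 9.58% and 1.32% with weights. The median slope of the list was 0.47 against 0.30 for all probe sets. With weights the count was 9 of 111 (8.11%; median 0.26 against 0.13), near the share of all probe sets. Zfp90 had a slope of 1.20 ± 0.27 (adjusted p = 0.00315, and 0.0742 with weights) and Zfp318 of 1.15 ± 0.26 (0.00285, and 0.0801). Of 28 ubiquitin-specific proteases 11 (39.3%) were higher and 0 lower, and with weights 1 (3.57%) was higher and 1 lower. Usp9x, which spares several signalling proteins from degradation, stood at 38.2 to 573 at 10 pg and 6243 to 7273 at 5 ng. The slope of this probe set was 1.56. Its other tested probe sets had 0.65, 0.17 and 0.45, of which 0.17 and 0.45 were not called.

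Of 21 mitotic genes 6 (28.6%) were higher and 0 lower, near the 25.0% of all probe sets, and with weights 2 (9.52%) and 0, near the 9.58% of all. Their median slope was 0.50, and 0.11 with weights. Kif20a, a kinesin of cytokinesis, had 299, 87.3, 15.1 and 970 at 10 pg and 10422, 9786, 5521 and 5865 at 5 ng, with a slope of 1.42 ± 0.25 (adjusted p = 0.000785, and 0.0291 with weights). Its partner in the central spindle, Kif23, had a slope of 0.81 ± 0.27 (0.0299, and 0.0629). Of 34 DEAD and DEAH box helicases 12 (35.3%) were higher and 0 lower, and with weights 3 (8.82%) and 0. Ddx46, a helicase of the spliceosome, stood at 17.4 to 246 at 10 pg and 6679 to 10732 at 5 ng. Spliceosome proteins gave 12 of 55 (21.8%) higher and 0 lower, below the share of all probe sets, and with weights 9 (16.4%) and 0, above it. They were out at 10 pg in 26.4%, against 28.9% for their 5 ng level and 23.7% for their one-cycle level.

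Mitochondrial ribosomal proteins, solute carriers and small Rab GTPases differed from all probe sets of their level by less than 5 percentage points at 10 pg. They were out there in 32.8% of cases against 34.7%, in 39.4% against 37.8% and in 31.6% against 36.0%. At 50 pg they were out in 6.08% against 11.8%, in 19.1% against 18.5% and in 14.7% against 15.3%, so the first list lay lower there. Of the first, 14 of 74 were higher with more input and 1 was lower (2 and 2 with weights), of the second 28 of 108 and 0 (7 and 0), and of the third 5 of 35 and 0 (3 and 0). These are 18.9%, 25.9% and 14.3% higher, against 25.0% of all probe sets. Translation factors were out in 21.1% against 26.2% (8 of 50 higher, 0 lower; 4 and 1 with weights) and proteasome subunits in 19.6% against 24.2% (6 of 37 and 0; 1 and 0).

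Subunits of the respiratory chain, cytosolic ribosomal proteins and the cytoskeleton were out in a smaller share of cases than all probe sets of their level in each of the 4 arrays, again a description with no test, on lists chosen with earlier results known. Oxidative phosphorylation subunits, which build the complexes of respiration and ATP synthesis, were out at 10 pg in 7.99% of cases (4.17 to 9.72% over arrays, 72 genes), against 24.9% for their 5 ng level (22.9 to 29.3%) and 12.8% for their one-cycle level. Cytosolic ribosomal proteins were out in 2.72% (2.17 to 4.35%, 46 genes), against 11.3% and 8.42%. Cytoskeletal genes were out in 5.26% (0 to 10.5%, 19 genes), against 19.2% and 12.3%. Matrix and fibroblast genes, at 12.5% (5.56 to 16.7%, 18 genes), also lay below their 5 ng level of 20.8% in each array, but near their one-cycle level of 12.8%. Macrophage genes did so too, at 26.8% (21.4 to 28.6%, 14 genes), against 31.8% and 30.2%. The CCT chaperonin, which folds actin and tubulin, was out in 3.12% (0 to 12.5%, 8 genes), against 4.52%, and 0 of 8 members had a called slope.

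**Figure D5:**
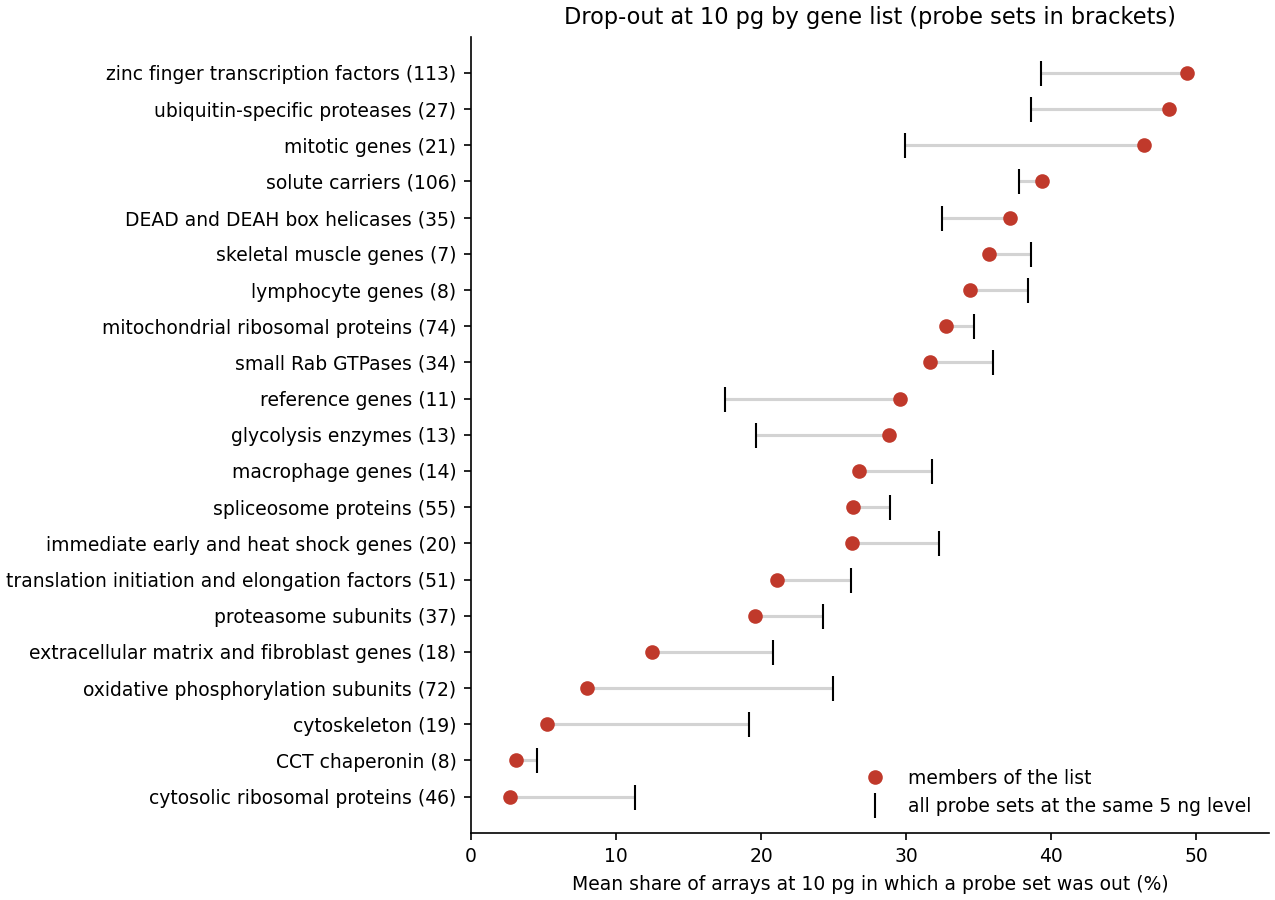
Mean percent of 10 pg arrays in which the members of each gene list were out (red points), beside that of all probe sets in the same half-log2 steps of 5 ng signal (black ticks), for lists with at least 7 members over 500 at 5 ng, whose number is in brackets. Oxidative phosphorylation subunits lay at 7.99% against 24.9%, and mitotic genes at 46.4% against 29.9%.

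Ribosomal protein transcripts were higher at lower input on the authors' scale. Of 46 tested, 11 (23.9%) were lower with more input and 0 higher (5 and 0 with weights), with a median slope of -0.28. Of all probe sets 1.50% were lower, and of those at 16000 and over 7.26%. Rps28 of the small subunit had 414162, 211126, 293007 and 378366 at 10 pg and 96251, 93527, 133212 and 122590 at 5 ng, without overlap, and a slope of -0.49 ± 0.11 (adjusted p = 0.00284, and 0.0612 with weights), which turned to 0.09 on the hybridization-control scale. On that scale 9 of 46 were higher and 0 lower, so the direction of this list depends on the scale. The list's median minus that of all probe sets was -0.58 on the authors' scale, -0.31 with weights, -0.15 after quantile normalization and -0.44 on the hybridization-control scale. The probe sets of Rps28 and Rps29 are of a type that can also bind related sequences, and ribosomal protein genes have many processed copies, so these values may be shared with other loci.

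Actb, cytoplasmic beta-actin, had 511856, 441290, 426881 and 449921 at 10 pg, 173166 to 255003 at 50 pg and 121822 to 207779 at 5 ng. Only the 10 pg arrays stood apart, at the input where the hybridization controls were also high, and their part in it was not tested. Its slope was -0.51 ± 0.12 (adjusted p = 0.00340, and 0.573 with weights) and 0.07 on the hybridization-control scale. Of 19 cytoskeletal genes 3 (15.8%) were lower with more input and 1 (5.26%) was higher (1 and 0 with weights), against 1.50% and 25.0% of all probe sets. The higher one was Myl6, a myosin light chain (0.52 ± 0.15, adjusted p = 0.0145, and 0.142 with weights).

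Subunits of oxidative phosphorylation were called higher less often, and lower more often, than all probe sets on the authors' scale. Of 73 tested, 5 (6.85%) were higher with more input and 6 (8.22%) lower (1 and 10 with weights). Of all probe sets 25.0% were higher and 1.50% lower, and of those at 16000 and over 10.7% and 7.26%. The median slope of the list was -0.11, and 41 were higher and 0 lower on the hybridization-control scale. Ndufs1, the largest iron-sulfur subunit of complex I, had 3466, 2262, 3297 and 6116 at 10 pg and 14944 to 18249 at 5 ng (slope 0.69 ± 0.14, adjusted p = 0.00179, and 0.00882 with weights). Ndufs3, another complex I subunit, had a slope of 0.76 ± 0.22 (0.0126, and 0.0951). The lower ones included Ndufb10 of complex I, with a slope of -0.67 ± 0.12 (0.000869, and 0.00288), which was picked after its values were seen.

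Genes used as references for normalization did not share 1 trend. Of 11 tested, 4 (36.4%) were higher with more input and 2 (18.2%) lower (2 and 0 with weights), against 25.0% and 1.50% of all probe sets. Gusb, a lysosomal glucuronidase, had a slope of 0.93 ± 0.19 (adjusted p = 0.00162, and 0.212 with weights) and Tfrc, the transferrin receptor, of 0.75 ± 0.18 (0.00509, and 0.0737). Reference genes were out at 10 pg in 29.5% of cases (27.3 to 36.4% over the 4 arrays), against 17.5% for their 5 ng level (16.1 to 20.5%) and 20.7% for their one-cycle level. Glycolysis enzymes were out in 28.8% (23.1 to 46.2%), against 19.7% (18.7 to 22.5%) and 15.8%, with 2 of 13 (15.4%) higher (Pfkp and Pfkm) and 1 (7.69%) lower (0 and 1 with weights). At 50 pg both lists lay below their 5 ng level, reference genes at 2.27% against 5.46% and glycolysis enzymes at 0% against 5.75%.

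Lists of tissue and immune genes differed in how many members were called, against 25.0% higher and 1.50% lower of all probe sets. Of 14 macrophage genes 2 were higher and 0 lower (2 and 0 with weights). Adgre1, which encodes the macrophage marker F4/80, had a slope of 0.92 ± 0.16 (adjusted p = 0.000776, and 0.0192 with weights) and Cd68, a lysosomal glycoprotein, of 0.75 ± 0.20 (0.00858, and 0.583). Of 8 lymphocyte genes 0 were called (0 higher and 1 lower with weights). Of 18 matrix and fibroblast genes 3 were higher and 2 lower (0 and 2 with weights), and among 20 immediate early and heat shock genes the counts were 6 and 2 (1 and 0), with Atf3 at 0.81 ± 0.21 and Egr2 at 0.71 ± 0.18.

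Of 8 skeletal muscle genes 1 (12.5%) was called in each direction, with and without weights. Of all probe sets 25.0% were higher and 1.50% lower, and 9.58% and 1.32% with weights. Tnnc1, the calcium-binding troponin of slow muscle, was higher with more input, at 32.4 to 1234 at 10 pg and 1409 to 1959 at 5 ng (slope 0.92 ± 0.27, adjusted p = 0.0133, and 0.00481 with weights). Acta1, skeletal alpha-actin, was lower, at 1072 to 3523 at 10 pg and 154 to 592 at 5 ng (-0.61 ± 0.16, adjusted p = 0.00653, and 0.0454 with weights). On the hybridization-control scale its slope was -0.12 (adjusted p = 0.554) and the call was lost. The 5 ng mean of Acta1, at 365, was under the minimum of the filter on mean signal. Acta1 passed that filter only through its arrays of lower input, so its lower signal with more input is a description.

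Among the called negative slopes were transcripts with a low or dim signal at 5 ng. Ifna1, an interferon alpha, had 4115, 10559, 7494 and 6170 at 10 pg, 1171 to 2797 at 50 pg, 730.5 to 2354 at 100 pg and 661 to 942 at 5 ng. Its slope was -0.95 ± 0.17 (adjusted p = 0.000779, and 0.0454 with weights), and its probe set is of the type that can bind related sequences. Among 25 spermatid and testis genes 7 passed the filter on mean signal, which a transcript dim at 5 ng can pass only by being bright elsewhere. Of these, 5 (71.4%) were lower with more input (0 with weights), a count that is thus a description. Of all probe sets 1.50% were lower (1.32% with weights), and of those tested with a 5 ng signal under 500, 5.04%. Prm1, a protamine of sperm chromatin, had 20108, 8438, 12785 and 8770 at 10 pg, 7.10, 5.90, 2325 and 2325 at 50 pg and 15.6 to 182 at 5 ng. Alb, serum albumin of liver, had 9758, 5049, 5450 and 3460 at 10 pg and 8.40 to 303 at 5 ng. Its 5 ng mean was 84.7, and it passed the filter on mean signal only through its 10 pg arrays, so its lower signal with more input is a description. With weights it was not called (adjusted p = 0.0711).

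Few probe sets that were dim at 5 ng turned bright at low input, and most of those did so in 1 array only. Of 10758 probe sets under 500 at 5 ng, a mean of 112 per array (89 to 142) reached 2000 at 10 pg, 64 at 50 pg, 25.8 at 100 pg, 0.75 at 500 pg and 0.25 at 1 ng. At 10 pg 402 of them did so at all, 374 in 1 array, 16 in 2, 7 in 3 and 5 in all 4. Probe sets over 500 at 5 ng also overshot: at 10 pg 5.36% of those at 1000 to 2000 and 1.18% of those at 16000 and over stood above 4 times their 5 ng mean. The median ratio to 5 ng at 10 pg was 0.361 at 1000 to 2000 (0.310 to 0.437 over arrays) and 1.16 at 16000 and over (1.13 to 1.18).

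A term was added for a change of slope at 100 pg, to ask whether the trend under 100 pg differed from that above it. Of 11762 probe sets, 1257 (10.7%) fell further under 100 pg and 117 (0.995%) rose. With array weights 239 (2.03%) fell and 2 (0.0170%) rose, and on simulated data the fit of this term without weights made more false calls than true ones. Rab24, a small GTPase of late autophagy, had 123, 904, 16.0 and 532 at 10 pg, 41602, 3800, 33602 and 1199 at 50 pg and 13853 to 24255 at 100 pg. Its term was -6.03 on the log2 scale per 10-fold less input (adjusted p = 0.000212, and 0.00990 with weights). Fam118b had -5.93 (0.000155, and 0.0166) and Slu7, a splicing factor, -5.55 (0.000718, and 0.131). The largest rises were those of Prm1, Tubb3 and Zfp235. Tubb3, a tubulin of neurons, had 941, 394, 10567 and 3808 at 10 pg and 13.2 to 227 at 100 pg, with a term of 4.69 (adjusted p = 0.000726, and 0.0617 with weights). Tubb3 and Prm1 passed the filter on mean signal only through their 10 pg arrays, so their rise is a description.

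Between neighbouring inputs, tested on their own 8 arrays, few single transcripts could be called. At 10 pg against 50 pg limma called 0 of 11312 (0%), with 1326 at an unadjusted p under 0.05. In 1 fit of all 24 arrays, which gives the 10 pg arrays the smaller spread of the others, 190 were higher and 1608 lower at 10 pg. At 50 pg against 100 pg 2 of 11418 were called (0.0175%). One of these was Gramd3, a lipid-binding membrane protein, with mean signals of 3905 at 50 pg and 110 at 100 pg (log2 change 4.11, adjusted p = 0.0432), named for being called. Neither call held with the replicate block, with replicates 1 and 2 against 3 and 4 as a term, after quantile normalization or on the hybridization controls (0 calls each). The other has no symbol here. At 100 pg against 500 pg, 500 pg against 1 ng and 1 ng against 5 ng it called 0 (0%) of 11633, 11780 and 11832, with 987, 420 and 1409 at an unadjusted p under 0.05. Without 100 pg replicate 3 the step at 100 pg against 500 pg gave 57 calls, and without 100 pg replicate 4 it gave 45.

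At matched inputs the loss with BIIB was set beside that of the 3 kits, each against its own 5 ng arrays. At 50 pg the share of probe sets over 500 that were out was 16.5%, 21.3%, 14.3% and 15.0% with BIIB, against 10.4% and 29.0% with AFFX2rd, 32.9% and 38.5% with NGN and 13.1% and 26.0% with ARCHS. One AFFX2rd array at 50 pg had 73.5% of its probe sets at 16000 and over out and the other 0.276%, and one ARCHS array had 47.8% and the other 0.592%, against 1.71 to 2.48% with BIIB. Over all levels the 4 BIIB arrays lay below both NGN arrays and between the pairs of AFFX2rd and ARCHS. By level this differed: at 500 to 1000 BIIB was out in 20.8 to 33.0%, against 3.42% and 20.5% with AFFX2rd and 10.5% and 30.9% with NGN, and at 1000 to 2000 in 17.0 to 27.4%, against 14.1% and 15.1% with AFFX2rd and 30.2% and 40.4% with NGN. At 500 pg it was 0.977 to 1.88% with BIIB, against 0.424% and 0.849% with AFFX2rd, 28.2% and 34.3% with NGN and 4.64% and 4.01% with ARCHS. A two-sided exact permutation test of 4 against 2 arrays cannot go below p = 0.133, so none of these differences could pass 0.05.

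A 5 ng mean of 4 arrays is steadier than one of 2. With the BIIB replicates 1 and 2 alone the shares were 16.4% and 21.3% at 50 pg and 0.954% and 0.756% at 500 pg, and with replicates 3 and 4 alone 14.8% and 15.1%, and 2.05% and 2.47%. Probe sets with a drop-out input in BIIB were out somewhat more often in the 50 pg arrays of the kits than others of the same level, in 15 of 18 pairs of kit and level. At 4000 to 8000 the shares were 27.9% against 22.5% with AFFX2rd, 58.3% against 47.4% with NGN and 21.5% against 18.1% with ARCHS. This is a description across probe sets, with no test.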

How the data were processed

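The deposited values were MAS5 signals, a linear intensity per probe set and array scaled by the authors, per the submitters' processing notes. Its version and settings are not given in the sources used here. All BIIB arrays of universal RNA had trimmed means of 2501 to 2502 with 2% trimmed from each end.

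Groups came from the sample titles. The 64 control probe sets were left out, and 20393 probe sets had 1 gene symbol in the platform annotation. Tests ran on log2(signal + 125) for probe sets with a mean of at least 500 over the arrays fitted, with limma 3.58.1 (lmFit, eBayes) in R 4.3.3 and Benjamini-Hochberg adjustment over all probe sets tested. Slopes were called at an adjusted p below 0.05 with a fitted 2-fold change over the range. A fold on this scale understates the change of dim probe sets. Exact two-sided permutation tests compared arrays (Python 3.11.15, numpy 2.4.6, pandas 2.3.3, scipy 1.17.1; figures with matplotlib 3.10.9). The number of arrays limits the precision.

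Genes were named by a fixed rule: the 8 steepest positive and 6 steepest negative slopes without overlap of 10 pg and 5 ng, the 3 brightest at each drop-out input, up to 2 called members of each of 23 gene lists, the 3 largest changes of slope each way and the 3 smallest spreads. The members and lists were chosen with earlier results of these data known. Alternatives were the scaling, pseudocount, filter, replicate block, array weights, drop-out threshold and arrays left out. Scaling on the hybridization controls, and averaging 100 pg replicates 1 and 2 for the drop-out measures, were chosen after seeing the data. The fits were checked on simulated data in which the spread grew at low input as observed, with normally distributed noise and 200 changed beside 11562 unchanged probe sets. There the slope and slope-change fits without weights made several times more false calls than the adjusted p aimed at, and those with array weights came close to it. The fits without weights were kept as the design had set them, and the weighted values stand beside them.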

Additional observations from a re-analysis of the deposited data

Results flagged for a closer look

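In each input the highest or lowest of 4 arrays was set against the others by Dixon's ratio at its 95% critical value. Of 198 groups of 4 values, 22 (11.1%) passed it, where chance gives about 1 in 20, and the values share arrays.

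Among the shares of probe sets out, replicate 1 at 10 pg was highest at 4000 to 8000 (40.3%, others 35.2 to 36.0%) and at 16000 and over (18.6%, others 11.7 to 12.8%). At 50 pg replicate 2 was highest at 2000 to 4000 (21.0%, others 14.8 to 15.8%). The other shares were of few probe sets. Replicate 4 at 1 ng had 0.114% at 4000 to 8000 and 0.0887% at 8000 to 16000. Replicate 1 had 0.0855% at 500 pg, 0.0855% at 1 ng and 0.0850% at 5 ng at 16000 and over. Replicate 3 at 5 ng had 0.0429% at 2000 to 4000 and 0.0561% at 4000 to 8000.

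At 100 pg replicate 4 was lowest for Bnip2 (4892, others 25281 to 27543), Usp48 (21.1, others 5866 to 9482) and Rab22a (343, others 727 to 805). Replicate 3 at 100 pg was highest for Copz2 (7763, others 3789 to 4088) and Rufy2 (2584, others 438 to 551), and replicate 3 at 50 pg for Rufy2 (8244, others 11.4 to 53.9). Usp48 was highest in replicate 4 at 10 pg (336, others 10.7 to 38.8). At 1 ng replicate 4 was lowest for Nme7 (4060, others 8584 to 9974) and Mrpl2 (22128, others 33027 to 35795). At 5 ng Alb was highest in replicate 3 (303, others 8.40 to 19.0), Pfkp was highest in replicate 1 (63290, others 39650 to 41965) and Ctsl was lowest in replicate 4 (95378, others 117144 to 119929).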

How the results depend on the processing

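The number of probe sets higher with more input was 2939, and it was 1341 after quantile normalization, 9576 on the hybridization controls, 1127 with array weights and 536 without the 10 pg arrays, with 1985 to 3148 when arrays were left out. The number lower was 176, and it was 455 after quantile normalization, 5 on the hybridization controls, 333 with no filter and 90 without the 10 pg arrays (145 to 219 with arrays left out). Falls under 100 pg numbered 1257, and 694 after quantile normalization, 8644 on the hybridization controls and 239 with weights (805 to 1283 with replicates left out). Rises numbered 117, and 260, 7 and 2 under the same settings, 256 with no filter and 63 with 100 pg replicates 1 and 2 averaged (61 to 156). Calls at 10 pg against 50 pg were 0, and 4212 on the hybridization controls, 46 with no filter and 1798 in 1 fit of all arrays (0 to 1 with arrays left out). Calls at 50 pg against 100 pg were 2, and 0 after quantile normalization, on the hybridization controls, with the replicate block and with replicates 1 and 2 against 3 and 4 as a term, and 76 in 1 fit (0 to 2). Calls at 100 pg against 500 pg were 0, and 2 on the hybridization controls and 1 with that term (0 to 57). The share out at 10 pg was 36.2%, and 27.1% after quantile normalization, 67.9% on the hybridization controls, 51.2% under 1/2 and 25.0% under 1/8 of the 5 ng mean and 25.4% under a signal of 250 (35.8 to 36.8%). At 50 pg it was 16.8%, and 11.4% after quantile normalization and 31.2%, 9.39% and 13.4% with these thresholds (15.5 to 17.6%). At 100 pg it was 7.21%, and 19.4% and 3.51% with the first 2 thresholds and 9.92% with replicates 3 and 4 alone (6.12 to 8.23%). The share with a drop-out input was 20.8%, and 11.8% after quantile normalization, 63.0% on the hybridization controls and 39.2%, 10.2% and 12.9% with the thresholds (8.97 to 9.23% with 3 arrays, all of which had to be out). Slopes turned to 0.085 for Rps29, 0.093 for Rps28 and 0.074 for Actb on the hybridization controls, and to 0.873 for Zfp235, -0.114 for Fam118b and -0.352 for Slu7 without the 10 pg arrays. With array weights 36 of 61 named genes no longer passed. Among the 61, Ctsl, Ldha, Tpi1, Tubb3 and Zfp235 had not been called at first, so they had no call to lose. Without the 10 pg arrays 40 of the 55 that could be tested no longer passed, and neither did Fam118b and Slu7, whose slopes had reversed. Deviations of same-numbered arrays correlated with a mean r of -0.00841 to 0.196 over pairs of inputs. Every same-numbered pair was over 0.1 at 500 pg with 1 ng (lowest 0.135) and at 500 pg with 5 ng (lowest 0.133), but not at the other pairs of inputs, so the numbers were taken to pair the arrays there alone. With the replicate block 2910 were higher and 185 lower over all inputs, and 500 pg against 1 ng gave 0 calls. For other settings the cause of a change was not tested.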
